A study of Drosophila melanogaster with 3 samples.

Results

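Genes that held many binding sites of Schnurri within their own span were examined in whole Drosophila melanogaster embryos. A summit is the position of highest signal in a peak, and a gene was included when at least 4 summits of the authors' reproducible peak list lay between its annotated start and end. These genes number 69 of the 13944 protein-coding genes other than shn on arms 2L, 2R, 3L, 3R, 4 and X (0.495%). The material was the same throughout, namely mixed-sex embryos 0 to 24 h old from a stable transgenic line in which shn carries a C-terminal eGFP. Chromatin was sonicated to 200 to 800 bp and precipitated with an anti-GFP antibody, and the 3 samples are biological replicates of 1 group. There was no second condition, so values are compared between genes and between replicates only. Such embryos mix all cell types and all of embryonic development, and a summit in them does not say in which cells the site was bound.

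Schnurri is a DNA-binding protein with many zinc fingers that works in the Dpp branch of BMP signalling. When Dpp activates the Smad proteins Mad and Medea, Schnurri can join them on a short silencer element and repress the neighbouring gene, with brk as the best-studied case. Regulatory elements that work at a distance are commonly placed in the introns of long genes, and an intron can also hold a whole smaller gene with its promoter. A count of summits within a gene span is therefore a count of sites in that stretch of the genome and not a statement that the gene is regulated by them.

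The genes were chosen by the summit counts, so the counts, the density and everything that follows from them are given as description with no test. The 69 genes held 349 different summits, which is 9.73% (95% Wilson interval 8.80 to 10.7) of the 3586 reproducible summits. A further 3212 summits lay elsewhere, and 25 lay in shn itself, the tagged gene, which was not counted. Exactly 4 summits were found in 39 genes, 5 in 12, 6 in 6, 7 in 4, 8 in 2, 9 in 2 and 10 in 3, and 1 gene held 17. Just outside the threshold, 91 genes held 3 summits. The genes with exactly 4 had a median length of 26.9 kb and those with 3 a median of 29.2 kb, so that step is not a step in length. Among the genes with 4, Pgk (6.19 kb), CrebB (11.5 kb) and ImpL2 (12.1 kb) were the shortest and pum (171 kb), CG15465 and rg (169 kb each) the longest. Among the genes with 3, Wwox (4.62 kb), CG9837 (5.90 kb) and Drat (6.86 kb) were the shortest and mbl (163 kb), Dys (136 kb) and fru (131 kb) the longest. In 6 of the 69 genes summits are shared, because HmgZ overlaps HmgD, Fim overlaps CG5445, and CG15465 and rg have the same annotated span.

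Sites of 1 sequence element show why a count belongs to a stretch of the genome. CG1677 held 17 summits, more than any other gene examined. It lies on X from 7281089 to 7405797 of Release 6 (dm6) on the minus strand, is 125 kb long and encloses 13 other protein-coding genes, of which brk is 1. The silencer element through which Schnurri is known to act had 10 matches in the span of CG1677, counting both strands. Of these, 6 lay within 250 bp of a reproducible summit, and these sites are shown because they coincide with summits of the gene that ranked first. Each line gives the 30 bases of Release 6 around a match, read 5′ to 3′ along the strand on which it matched, with the 16 bases of the element in capitals.

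CG1677 intron, X from 7291944, minus strand: tggcattGGCGCCCGTGCGTCTGaatatgg
CG1677 intron, X from 7299721, plus strand: cggcagcGACGACAGAGTGTCTGgcggcgt
CG1677 intron, X from 7299753, plus strand: caagactGGCGACATTCTGTCTGgtggcga
CG1677 intron, X from 7299904, minus strand: catcgctGACGTCGCTCTGTCTGctccaaa
CG1677 intron, X from 7301300, plus strand: gcacgtaGGCGTCCGCTCGTCTGtctctgt
CG1677 intron, X from 7317459, plus strand: cgagagtGGCGCCAAACAGTCTGaaaattt
bun 5′ UTR, 2L from 12461240, plus strand: ttgtactGGCGACTGAACGTCTGcttgcaa
Ptp61F, 3L from 1385802, minus strand: gtggcctGGCGGCGTCCAGTCTGtgtggtg

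The 3 matches between 7299721 and 7299919 surround 1 summit at 7299839, which lies 8100 bp upstream of brk and had a signal of 402. That summit ranked 212 in the reproducible list and 3340, 570 and 46 in replicates 1, 2 and 3, so it ranked lower in replicate 1 than in the other two. The match at 7301300 lay 236 bp from the next summit, at 7301071, which had a signal of 413 and ranks of 1297, 415 and 60. The match of bun lay 6 bp from a summit of signal 119, and that of Ptp61F lay 160 bp from a summit of signal 105. Over all 69 spans the element matched 23 times in 4.18 Mb, against 349 times in the remaining 130 Mb of the 6 arms, which is 5.50 against 2.69 matches per Mb. CG1677 alone supplied 10 of the 23, bun 3 and dnc 2, and 8 other genes supplied 1 each. Within 250 bp of a reproducible summit were 8 of the 23 matches in the spans, against 4 of the 349 elsewhere, but the spans were chosen for holding summits. With the whole element inside 100 bp of the summit, 4 of 349 summits in the 69 genes had a match (1.15%, Wilson 95% interval 0.447 to 2.91) against 1 of 3212 other summits (0.0311%, 0.0055 to 0.176), and 3 of those 4 were in CG1677. The element was in 8 of 19252 windows of 201 bp around all transcription start sites (TSSs) (0.0416%).

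The other summits of CG1677 were also placed around the genes that it encloses. Of the 17, 1 lay within 1 kb of a TSS of CG1677, 6 lay within 1 kb of the TSS of another gene only, and 10 lay over 1 kb from every TSS. All were in an intron, and they spread over 52.5 kb, with a median step of 1950 bp between neighbours. The strongest, 195 bp upstream of brk, had a signal of 699 and ranks of 1731, 61 and 12 in replicates 1, 2 and 3. The summit 273 bp upstream of CBP had a signal of 526 and ranks of 189, 122 and 105, so it varied less between replicates than the one at brk. The remaining nearest genes were unc-119, Atg5, Dok and CG42780. Of the 17 summits, 14, 15 and 16 ranked among the first 3586 peaks of replicates 1, 2 and 3, called the top lists here, and 12 did so in all 3. What CG1677 encodes was not considered here, since 16 of its 17 summits were not near a TSS of its own.

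**Figure D1:**
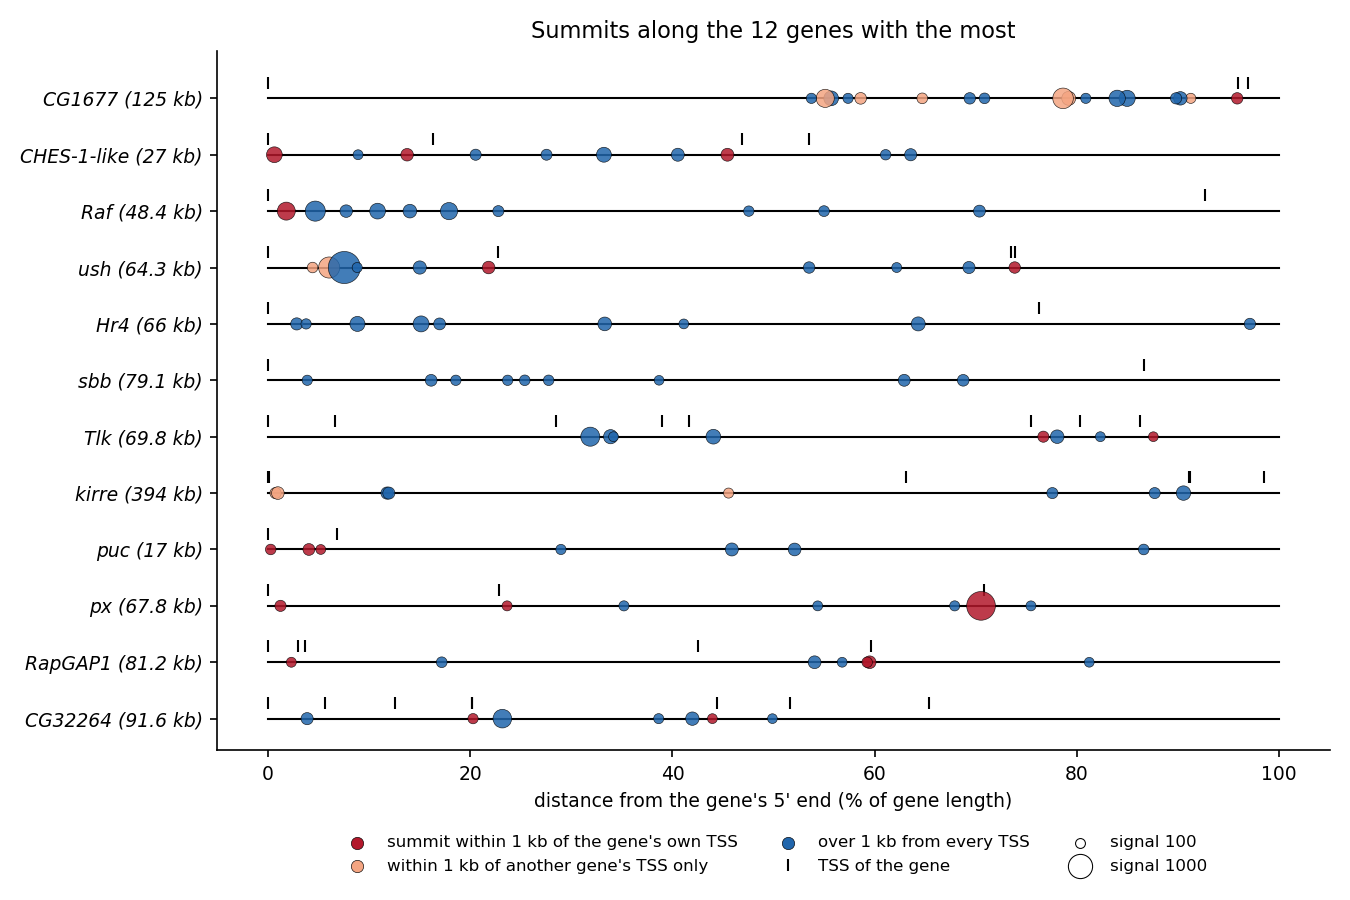
Summits along the 12 genes with the most, as the distance from each gene's 5′ end in percent of its length, with CG1677 at the top. Circles are reproducible summits, their area grows with the authors' signal, their colour gives the nearest kind of TSS, and ticks above each line are the gene's own TSSs. The 17 summits of CG1677 lie in the downstream part of the gene, those of Raf crowd towards its 5′ end, and all 9 of Hr4 and of sbb are over 1 kb from a TSS.

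Raf encodes the kinase between Ras and MEK in receptor tyrosine kinase signalling, and its 10 summits lay mainly in its 5′ part. The gene spans X from 2295466 to 2343870 (48.4 kb, plus strand). Of the 10 summits, 1 was 875 bp downstream of the first TSS, in the 5′ UTR, with a signal of 517. The strongest, 2263 bp downstream in an intron, had a signal of 666 and ranks of 96, 64 and 66 in replicates 1, 2 and 3. A further 4 intronic summits lay between 3743 and 8665 bp downstream, with signals of 210, 378, 265 and 467. The run was found in each replicate, since the top lists held 8, 10 and 10 of the 10 summits. CHES-1-like, a forkhead transcription factor gene of 27.0 kb on X, also held 10, of which the top lists held 9, 10 and 8. Its density of 3.70 summits per 10 kb was 1 of the 5 highest, with a median step of 1833 bp.

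The third gene with 10 summits was ush (u-shaped, 2L from 476220 to 540560), which encodes a zinc finger cofactor of GATA factors and is a target of Dpp in the dorsal embryo. Of its 10 summits 2 were near an own TSS, 2 near the TSS of cbt, a transcription factor gene nested in ush, and 6 were over 1 kb from every TSS. The second strongest peak of the whole reproducible list, with a signal of 1818 and ranks of 3, 2 and 2, lay in an intron 1388 bp upstream of cbt. Another, 422 bp upstream of cbt, had a signal of 741 and ranks of 46, 45 and 69. Further along the gene, 3 intronic summits over 1 kb from any TSS were weaker, with signals of 163, 103 and 192. The top lists held 7, 9 and 8 of the 10. The other strongest peaks inside the genes examined were at px (plexus, a wing vein gene), with a signal of 1441 and ranks of 25, 6 and 3, and at ph-p (polyhomeotic proximal, a Polycomb gene), with a signal of 1082 and ranks of 14, 25 and 25. Both of these lay within 1 kb of an own TSS, 179 and 474 bp upstream.

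The sequences at 3 of the strongest summits are shown because these peaks stood near the head of every replicate list. They were taken in order of signal, where the sequence may be shown and the window holds no annotated UTR or coding sequence. Each line gives 81 bases of Release 6 centred on the summit, plus strand, 5′ to 3′.

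ush intron, 2L:481036-481116: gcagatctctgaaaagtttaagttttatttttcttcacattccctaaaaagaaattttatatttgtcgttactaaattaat
ph-p intron, X:2137289-2137369: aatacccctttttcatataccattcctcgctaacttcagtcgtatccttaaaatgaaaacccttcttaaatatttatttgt
Rtnl1 intron, 2L:4997596-4997676: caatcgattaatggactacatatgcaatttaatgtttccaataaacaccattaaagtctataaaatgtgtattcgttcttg

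GC content was 23.5% in the window of ush, 30.9% in that of ph-p and 28.4% in that of Rtnl1, a reticulon gene. Within 100 bp of all 349 summits the median GC content was 37.8%, against 38.3% at the 3212 other summits.

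None of the summits inside Hr4 and sbb lay within 1 kb of a TSS, although 1 of the 2 TSSs of sbb had a summit within 1 kb outside the span. Hr4 encodes a nuclear receptor of the ecdysone cascade and spans X from 1941940 to 2007956 (66.0 kb). Its 9 summits lay from 1876 to 23214 bp from the nearest TSS, 8 of them in introns and 1 in a 3′ UTR, with signals from 98.1 to 390. The top lists held 9, 9 and 8 of them. At sbb (brakeless), which encodes a nuclear corepressor, all 9 summits were intronic with signals up to 184, and the top lists held 8, 6 and 8. In both genes the counts in the 3 replicates thus stayed at or above 6.

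Tlk, which encodes a chromatin-associated protein kinase, held 8 summits in 69.8 kb, and the strongest had a signal of 590 and ranks of 112, 74 and 97. In kirre, the gene for an immunoglobulin adhesion receptor of muscle founder cells and the longest gene examined (394 kb), the 8 summits were scattered with a median step of 39892 bp. None lay within 1 kb of a TSS of kirre, and 3 lay at TSSs of other genes, including Syx4. The top lists held 8, 8 and 7 of the summits of kirre. At puc, the gene for the phosphatase that restrains JNK signalling in dorsal closure, 7 summits lay in 17.0 kb, and the top lists held 3, 6 and 6. The replicates were unequal at puc, with 2 of the 7 summits lacking any matching peak in replicate 1.

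**Figure D2:**
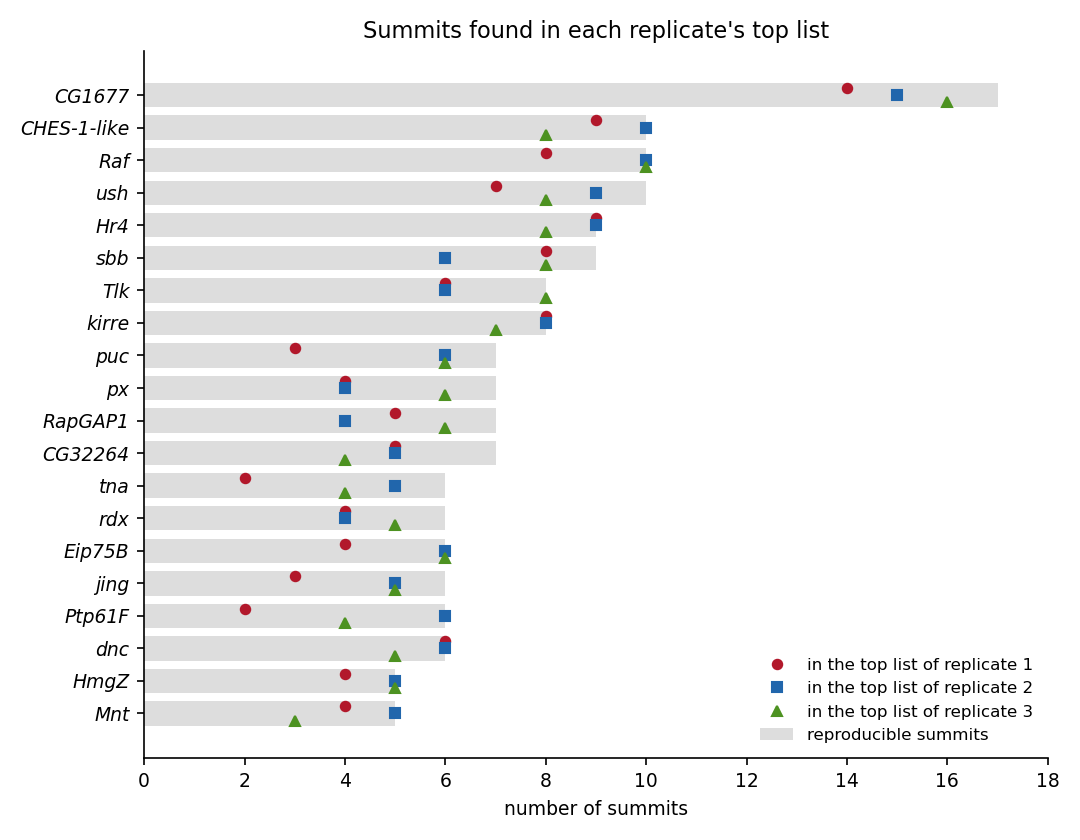
Number of summits in the 20 genes with the most, in the reproducible list (grey bars) and in the top list of each replicate (points, 3586 peaks of highest signal per replicate). For the first 8 genes every replicate held 6 or more, and puc, tna, Ptp61F and jing were among those with fewer in replicate 1 than in replicates 2 and 3.

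The remaining genes of the first 20 were RapGAP1 and CG32264 with 7 summits beside px, and tna, rdx, Eip75B, jing, Ptp61F and dnc with 6. HmgZ and Mnt with 5 completed them. Several encode known regulators. RapGAP1 is a GTPase-activating protein for Rap1, tna a SUMO ligase-like partner of Brahma, rdx an adaptor that targets Cubitus interruptus for degradation, and Eip75B a nuclear receptor induced by ecdysone. jing is a zinc finger factor of glia and trachea, Ptp61F a phosphatase of the JAK/STAT pathway, dnc the cAMP phosphodiesterase dunce, HmgZ a chromatin protein with an HMG box, and Mnt a repressor of the Myc network. At tna the top lists held 2, 5 and 4 of 6 summits, at Eip75B 4, 6 and 6, and at dnc 6, 6 and 5.

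Some summits lay close together. Neighbouring summits of a gene were a median of 3636 bp apart over 283 steps, from 199 to 132420 bp, and 53 steps (18.7%) were within 1 kb. The 16 shortest steps were 199 to 244 bp, 1 each in 16 genes or gene pairs, among them puc, HmgZ, Tlk, RapGAP1 and Mef2. In 15 of the 16 both summits overlapped the same peak in each of the 3 replicates. Counting such summits once, with a limit of 500 bp chosen after these steps were seen, 60 genes kept 4 or more, and CG15465, CrebB, HmgD, ImpL2, JIL-1, NFAT, Pax, for and rg did not. With a limit of 1 kb 45 genes did.

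Most of the 69 genes were long, but most long genes were not among them. The 69 genes had a median length of 45.4 kb (6.19 to 394), against 8.82 kb for the 1377 genes with 1 to 3 summits and 1.96 kb for the 12498 with none. Of genes under 5 kb, 0 of 10461 reached 4 summits. The share was 0.0664% at 5 to 10 kb, 1.35% at 10 to 20 kb, 3.40% at 20 to 50 kb, 8.07% at 50 to 100 kb and 15.7% at 100 kb or more, where it was 13 of 83 genes. Summits per 100 kb moved otherwise, at 2.44, 3.37, 3.38, 2.27, 1.56 and 0.864 over the same 6 classes. Of the 83 longest genes, 41 held no summit.

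Spearman's correlation between summits and length was 0.337 over all 13944 genes, 0.452 over the 1446 with a summit and 0.420 over the 69. These are descriptions across genes, which share neighbourhoods and are not replicates. Among the 1012 genes of 20 kb or more the correlation with length was 0.122, while that with the number of annotated TSSs was 0.306. Within the 69 genes the order was the other way round, with 0.420 for length and 0.251 for TSSs. In that class the 55 genes with 4 or more summits (5.43%) had a median of 3 TSSs and the other 957 a median of 2. Density fell with length inside the 69 genes, with a correlation of −0.922, as a count with a floor of 4 must. The median was 1.15 summits per 10 kb, and it was highest in Pgk (6.46), HmgZ (4.82), puc (4.13), CHES-1-like (3.70) and CrebB (3.48). shn itself had 4.29 per 10 kb over 58.3 kb. The longest of the genes, after kirre, were pum (171 kb, a translational repressor), CG15465 (169 kb), rg (169 kb, rugose, an anchor of protein kinase A) and dnc (167 kb).

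**Figure D3:**
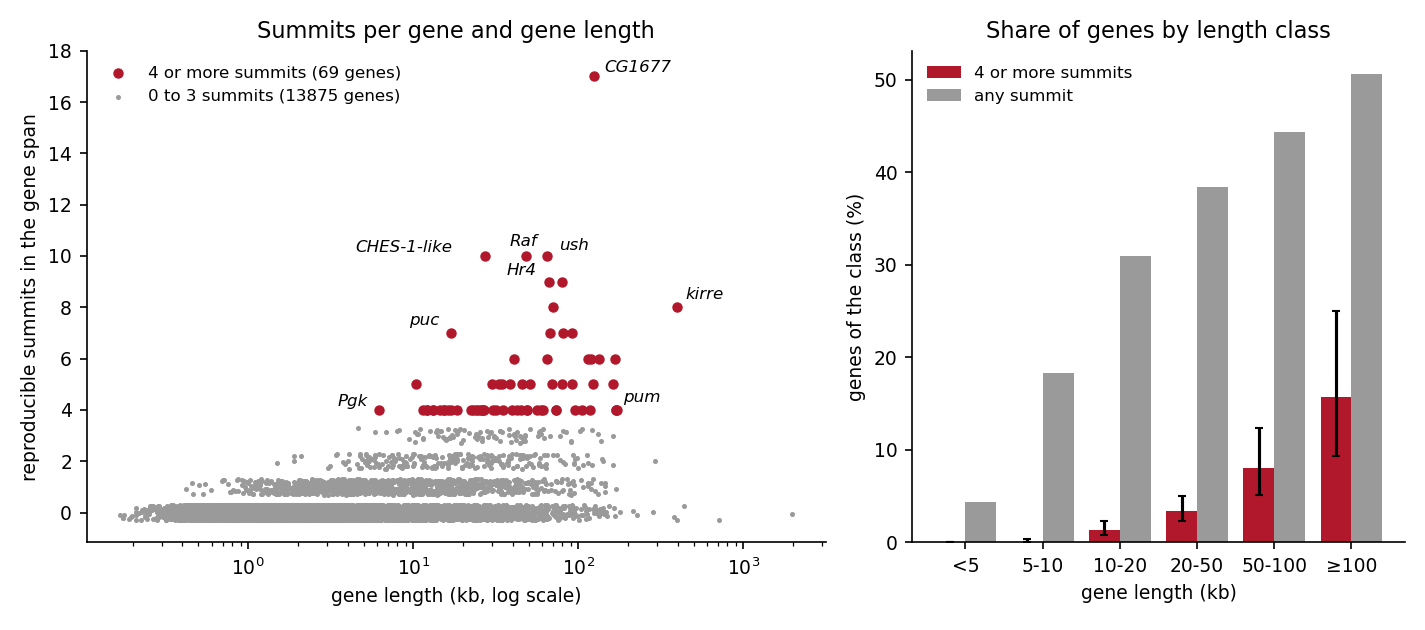
Left, reproducible summits in each gene against its length in kb on a log scale, with the 69 genes in red and the other 13875 in grey, jittered vertically. Right, the percent of genes in each length class with 4 or more summits (red, bars with 95% Wilson intervals) and with any summit (grey). The share with 4 or more reaches 15.7% at 100 kb and above, while 50.6% there have any summit.

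The 8 longest genes below the threshold held few summits or none. Myo81F (1966 kb), Pzl (709 kb), lovit (434 kb), CG17684 (396 kb), DIP-lambda (379 kb), bru3 (281 kb) and Snap25 (225 kb) held 0 summits, and Ten-a (292 kb) held 2. The authors label their pooled list as peaks and background, so its regions need not be peaks. Those that overlap no reproducible peak were also rare in these 8 genes. They numbered 0 to 0.889 per 100 kb in all but Ten-a (11.3) and bru3 (9.95). The genes with so few such regions lie in 3 stretches, at 567076 to 3263582 of 3R, 326768 to 2262115 of 2R and 24074180 to 25670980 of 3L. Whether reads can be placed uniquely there was not tested, so few peaks need not mean few bound sites. All 8 genes also count in the class of 100 kb or more. Regions of the pooled list that overlap no reproducible peak were denser in the genes examined than in others of like length. Among genes of 20 to 100 kb the median was 32.9 per 100 kb in the 42 with 4 or more summits, against 17.7 in the other 887.

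Summits in the 69 genes lay mostly away from promoters. Over 1 kb from any TSS were 226 of 349 (64.8%, 59.6 to 69.6), against 36.6% (34.3 to 38.9) of the 1667 other summits in genes and 31.3% of all 3212 others. Introns held 90.5% of them, against 69.3% of other summits in genes, and the 5′ UTR held 8.31% against 25.97%. Coding sequence held 2 summits. Summits were a median of 2071 bp from the nearest TSS, against 480 bp for other summits in genes and 235 bp for all other summits. Among genes of 20 kb or more alone, 203 of 297 summits were over 1 kb from a TSS (68.4%, 62.9 to 73.4) in the genes examined, against 339 of 549 (61.7%, 57.6 to 65.7) in the others. Between genes of such length the intervals thus overlap. Along these long genes, summits over 1 kb from a TSS were more often in the 5′ part in both sets. The first 25% of the gene length held 35.4% of them in the genes examined and 39.3% in the other long genes, and the last 25% held 14.1% and 9.32%.

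Most of these genes nevertheless had a summit near a promoter of their own. A summit within 1 kb of an own TSS lay inside 56 of the 69, and 13 had none there. In 33 genes at least 2 own TSSs had a summit within 1 kb inside or outside the span, and 123 of the 263 TSSs of the 69 genes had one, though close TSSs can share a summit. The genes were chosen for holding many summits, and the counts of this paragraph were not made for other genes. These counts therefore do not show a trait of the 69 genes. In 4 genes every summit was near a TSS. These were Ptpmeg2 (a tyrosine phosphatase), Pgk (phosphoglycerate kinase), Rtnl1 and Pax (paxillin), which have 6, 5, 7 and 7 TSSs. At Rtnl1 the summit 255 bp upstream of a TSS had a signal of 1066 and ranks of 19, 23 and 31. In 10 genes all summits were over 1 kb from every TSS. Another protein-coding gene was enclosed by 33 of the 69, and the enclosed genes summed over these came to 112. In that sum CG15465 and rg, of the same span, enclose each other, and Rpn13R and CG5062 count under both. A summit near the TSS of another gene only was found in 10 genes.

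Strength and agreement between replicates differed little from the remainder of the list. The median signal was 143, against 142 at other summits, and 12.6% were in the highest 10% of signal, against 9.62%. Within each replicate the median signal at these summits was 1.01, 1.03 and 1.09 times that at the others (mean 1.04 ± 0.0405, SD, n = 3). In the top lists of all 3 replicates were 203 of 349 (58.2%, 52.9 to 63.2), against 53.3% (51.6 to 55.0) of the others and 53.8% of the whole reproducible list, so the intervals overlap. The reproducible list was drawn from these replicates, and membership in their top lists is not separate evidence. Replicate 1 lacked a matching peak for 41 of the 349 summits (11.7%), against 8.87% of the others, and replicates 2 and 3 lacked none. Counted from the top list of each replicate alone, 57, 82 and 87 genes held 4 or more summits in replicates 1, 2 and 3, and 40, 57 and 45 of these were among the 69. In all 3 counts 30 of the 69 reached 4.

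Single genes differed more between replicates. All 4 summits were in each top list at JIL-1 (a histone H3 kinase), larp (an RNA-binding protein), Rtnl1, simj (a subunit of the NuRD remodeller), NFAT (a transcription factor) and CG43658. At JIL-1 and NFAT, however, 2 close summits overlapped the same peak in every replicate. Counted from the top lists alone, JIL-1 held 3, 3 and 4 summits and NFAT 4, 3 and 3, while the others named held 4 or more. By contrast bun, a leucine zipper gene of the TSC-22 family, had 1, 5 and 5 of 5 summits in the top lists, and pnt, the ETS activator of EGFR signalling, had 1, 4 and 4 of 4. At Zdhhc8, a palmitoyltransferase, they were 2, 3 and 0 of 4. In 20 genes at least 4 summits were in all 3 top lists, where summits that share a replicate peak each count. In spin, Zdhhc8 and Spn no summit was in all 3.

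By function, the lists of transcription factors and of kinases and phosphatases held the most of the 69 genes, at 10 of 275 and 6 of 113. By share the list of nuclear receptors and ecdysone response stood highest (12.5%). EGFR, FGF and Ras signalling followed (7.89%), then JNK, JAK-STAT, insulin and TOR signalling (6.38%) and chromatin regulators (6.25%). The lists of BMP and activin, of ion channels, transmitter receptors and synapse, of muscle, of ribosomal proteins and of chemosensory receptors held none. The lists cover 30 of the 69 genes, and 39 are in none. The counts below are read against 0.495% of all genes and 5.43% of genes of 20 kb or more, with no test, and several lists share genes. Of 275 genes listed as sequence-specific transcription factors 10 reached 4 summits (3.64%), and of the 89 that are 20 kb or more 8 did (8.99%). They were ush, Hr4, Eip75B and Mnt, then Mef2 (the myogenic MADS factor), CrebB, Trl (the GAGA factor), aop (the ETS repressor Yan), osa and pnt. This list takes in the cofactor gene ush and the Brahma complex gene osa, and leaves out CHES-1-like, jing, cic and NFAT. At Trl the 4 summits had signals of 802, 359, 199 and 116, and at Mef2 all 5 were over 1 kb from a TSS. The list of chromatin regulators had 5 of 80 (6.25%) and 3 of 13 long genes (23.1%). The 5 were tna, ph-p, Trl, osa of the Brahma complex, and gpp, the H3K79 methyltransferase. HmgZ, JIL-1, simj and tou are not in it, though they too encode chromatin proteins or partners of them. Long genes of the list held 7.71 summits per 100 kb, against 1.67 for all long genes. At osa the strongest summit, 13948 bp from a TSS in an intron, had a signal of 761 and ranks of 55, 52 and 52.

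Genes of the ecdysone response and nuclear receptors had 4 of 32 (12.5%) and 3 of 17 long genes. These were Hr4, Eip75B, the secreted insulin-binding protein gene ImpL2 and the cyclin-dependent kinase gene Eip63E. At Eip75B the strongest summit, in the 5′ UTR 51 bp from a TSS, had a signal of 461. EGFR, FGF and Ras signalling had 3 of 38 and 3 of 12 long genes, with Raf, aop and pnt. The JNK, JAK-STAT, insulin and TOR list had 3 of 47 and 2 of 8 long genes, with puc, Ptp61F and the insulin receptor gene InR, whose strongest summit had a signal of 413 and ranks of 880, 259 and 78. The list of kinases and phosphatases had 6 of 113 and 5 of 45 long genes, adding dnc, for (the cGMP-dependent kinase foraging) and Eip63E. It takes in dnc, a phosphodiesterase gene, and leaves out Raf, Tlk, JIL-1 and Ptpmeg2, so its counts hold for the list as drawn and not for all such enzymes. The Notch list had 1 of 27, the coactivator gene mam, and the Wnt and Hedgehog list 1 of 43, rdx. The list of RNA-binding regulators had 2 of 61, shep and pum, and leaves out larp.

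BMP and activin signalling, the pathway in which Schnurri acts, had 0 of 28 genes at 4 summits. On so few genes that is near the share over all genes. In this list 13 genes held 1 to 3 summits, with 2 as the highest count. Thus 46.4% held any summit, against 10.4% of all genes, at a median length of 8.29 kb against 2.17 kb. Only 7 genes are 20 kb or more, at 3.89 summits per 100 kb against 1.67 for all long genes. The ion channel and synapse list and the axon guidance and adhesion list hold many long genes, with few summits per 100 kb in those. Any summit was held by 12.8% of the genes of the former and 23.7% of the latter. Ion channels, transmitter receptors and synapse genes had 0 of 94, with 47 of 20 kb or more at 0.352 summits per 100 kb. Axon guidance and adhesion genes had 2 of 114, kirre and the adhesion gene Fas3, and 2 of 71 long genes (2.82%) at 0.870 per 100 kb. Muscle structural genes had 0 of 26 and 0 of 8 long genes, which on so few genes is near the share over all genes. Ribosomal proteins had 0 of 85 and chemosensory receptors 0 of 180, and both lists hold almost no long gene. Cytoskeletal genes had 2 of 108, Pax and the formin gene Fhos, and enzymes of glycolysis and the tricarboxylic acid cycle 1 of 28, Pgk.

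**Figure D4:**
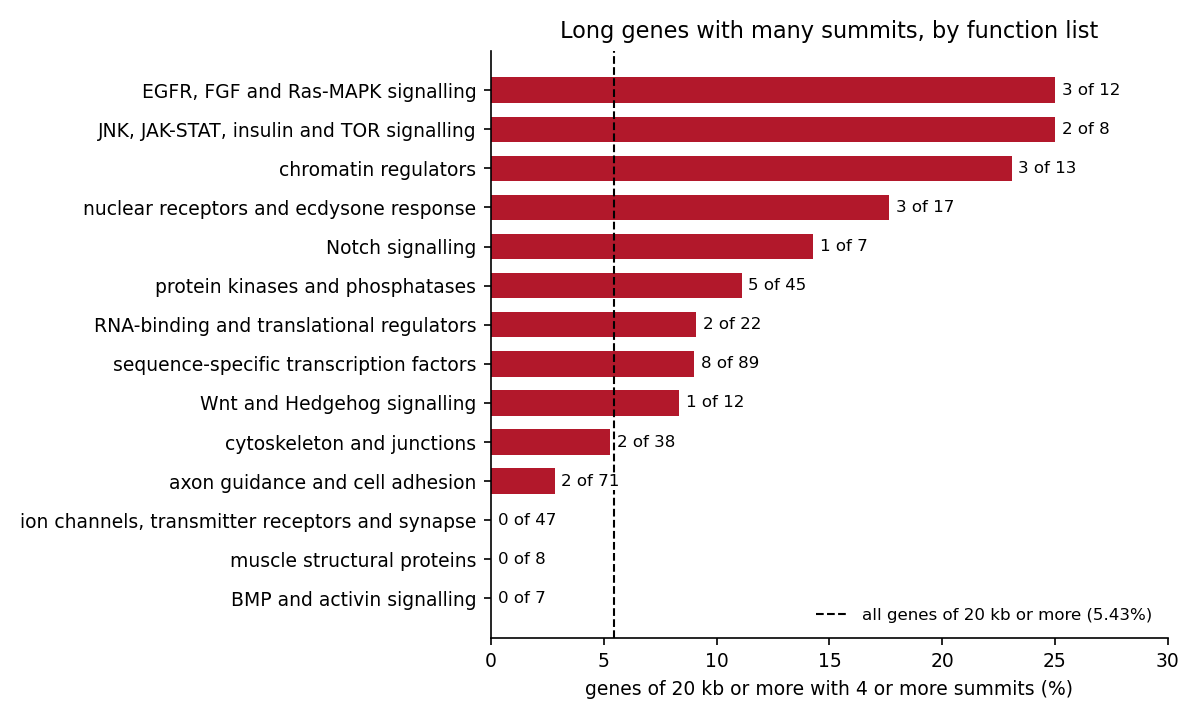
Percent of genes of 20 kb or more with 4 or more summits in each function list that has at least 7 such genes, with the counts beside the bars and all genes of that length as a dashed line (5.43%). The lists of EGFR, FGF and Ras signalling, of JNK, JAK-STAT, insulin and TOR signalling and of chromatin regulators stand highest on few genes (3 of 12, 2 of 8, 3 of 13). Of 47 long ion channel and synapse genes 0 reached 4. So did 0 of 7 long BMP and activin genes and 0 of 8 long muscle genes, which on so few genes is near the dashed line.

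The lists were drawn up by hand, so absence from them says little, and their counts and shares hold only for the lists as drawn. Among the 39 genes in none are the regulators CHES-1-like, sbb, jing, Tlk and px, and also cic (the Capicua repressor downstream of EGFR), tou (a partner of the remodeller ISWI), tara and NFAT. By chromosome, X held 21 of the 69 and 6 of the first 10, which is 0.956% of its 2196 genes and 8.59% of its 198 long genes. 3L held 14, 3R 13, 2L 12 and 2R 9, at 3.31 to 5.79% of long genes, and arm 4 held 0 of 80 genes.

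Of 11 motifs counted within 100 bp of the summits, the DRE was rarer at summits of the 69 genes than at other summits. That difference was not seen over 1 kb from a TSS, and the intervals for the GAGA repeat overlapped within 100 bp. Motifs were matched on both strands. The DRE (TATCGATA), bound by the promoter factor DREF, was at 2 of 349 summits (0.573%, 0.157 to 2.07), against 184 of 3212 others (5.73%, 4.98 to 6.59) and 52 of the 1667 other summits in genes (3.12%, 2.39 to 4.07). Restricted to summits within 1 kb of a TSS it was at 1 of 123 (0.813%, 0.144 to 4.46), against 180 of 2206 (8.16%, 7.09 to 9.38), and the intervals do not overlap. This restriction does not match position. The 123 lay a median of 315 bp from the nearest TSS and the 2206 a median of 109 bp. Of the 2206, 52.1% were intergenic, a class that the span rule keeps out of the 69 genes. Over 1 kb from a TSS the DRE was at 1 of 226 (0.442%, 0.0782 to 2.46). Other such summits in genes had it at 1 of 610 (0.164%, 0.0289 to 0.923), and these intervals overlap. The DRE was in 6.45% of the windows of 201 bp around all TSSs. The GAGA repeat (GAGAGAG), bound by the product of Trl, was at 27 of 349 (7.74%, 5.37 to 11.0), against 155 of 3212 others (4.83%, 4.14 to 5.62) and 100 of the 1667 other summits in genes (6.00%, 4.96 to 7.24). The intervals overlap in both comparisons, and the repeat was in 4.69% of TSS windows. Within 50 bp it was at 4.58% (2.84 to 7.32), against 1.65% (1.26 to 2.15) of all others and 2.10% (1.51 to 2.91) of other summits in genes, and only the interval over all others stands clear.

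The 27 summits with a GAGA repeat lay in 20 genes, with 3 each in puc and Tlk and 2 each in CG1677, tna and ush. Examples from the genes with the most summits are shown, as they place the repeat at the summits described above. Each has the repeat nearest to the summit in capitals with 15 flanking bases, on the strand that reads GAGAGAG, in Release 6.

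CG1677, X:7307722-7307758, minus strand: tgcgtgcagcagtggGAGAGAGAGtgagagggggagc
Raf, X:2302280-2302316, plus strand: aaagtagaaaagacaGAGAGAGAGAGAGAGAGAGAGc
ush, 2L:480181-480217, plus strand: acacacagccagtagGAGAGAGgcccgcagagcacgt
Tlk, X:3742283-3742319, minus strand: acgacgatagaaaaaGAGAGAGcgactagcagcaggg
puc, 3R:8114117-8114153, minus strand: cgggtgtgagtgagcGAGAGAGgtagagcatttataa
puc, 3R:8120017-8120053, plus strand: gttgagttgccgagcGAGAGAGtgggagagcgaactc
puc, 3R:8106205-8106241, minus strand: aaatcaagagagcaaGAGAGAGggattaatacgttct
tna, 3L:10856660-10856696, minus strand: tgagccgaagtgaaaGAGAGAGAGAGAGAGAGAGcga

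The repeat of CG1677 belongs to the summit 195 bp upstream of brk and that of ush to the summit 422 bp upstream of cbt. In Raf and tna the repeat is long, while in ush, Tlk and puc it is a single copy of the 7 letters. The share with the E-box CAGCTG was lower in the 69 genes, at 7.45% (5.13 to 10.7), against 11.7% (10.6 to 12.9) of all other summits and 12.2% (10.8 to 13.9) of other summits in genes. Against all other summits, the site TGATAAG of the GATA factors was at 2.58% (1.36 to 4.83) against 4.92% (4.22 to 5.72), and AP-1 (TGANTCA) was at 4.58% (2.84 to 7.32) against 5.76% (5.01 to 6.62). These 3 motifs were in 13.4%, 4.06% and 3.79% of TSS windows. Over 1 kb from a TSS, AP-1 was at 3.10% (1.51 to 6.25), against 8.03% (6.13 to 10.5) of other such summits in genes, and these intervals overlap narrowly. The E-box CACATG was at 9.17% against 7.41% and the dinucleotide repeat CACACACA at 6.02% against 4.11%, with overlapping intervals, and in 6.26% and 4.00% of TSS windows. Within 250 bp CACACACA was at 24.1% (19.9 to 28.8). All others had 12.9% (11.8 to 14.1) and other summits in genes 16.5% (14.8 to 18.4), and those intervals do not overlap the first. The Zelda (CAGGTAG), Grainyhead (ACCGGTT) and ETS (CCGGAAG) motifs were each at 5 or fewer of the 349 summits. A match shows only that these letters are present, and no motif was tested as a cause of the counts.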

How the data were processed

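The authors deposited peak lists for 3 biological replicates, for the pooled replicates and for peaks kept by the irreproducible discovery rate procedure, called reproducible here. Each row of the deposited lists gives the signal, the −log10 q and the summit offset of a peak as the authors' software wrote them. Which caller and threshold were used is not given in the sources at hand. Only the dm6 lists were used. No read counts were used, so depth is unknown and intervals cover counting error over genes or summits only, which are not replicates. At a −log10 q of 2, the deposited lists of replicates 1, 2 and 3 hold 2385, 5289 and 7213 regions.

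Each replicate list of 30000 was ranked by the authors' signal, and its first 3586 peaks form the top list. In replicate 1 the top list is thus longer than the 2385 regions at a −log10 q of 2, and takes in regions below that value. Peaks matched at an overlap of at least 1 bp, with the best rank kept. Genes came from Ensembl release 115 (BDGP6.54), sequence from Release 6, the same assembly as dm6. A summit was placed in every protein-coding gene whose span holds it, and annotated as UTR or coding sequence before intron. Intervals are 95% Wilson intervals; Spearman's correlation is given without p. Counting and matching were tested on simulated data. The named genes are those with the most summits, highest density and length, the strongest peaks, those of each list and those beside the threshold; others are named as chosen by their values. The 69 genes, 17 function lists (1379 of 1437 symbols matched), 11 motifs and alternatives were chosen with earlier results of these data known. Python 3.11.15, pandas 2.3.3, numpy 2.4.6, scipy 1.17.1 and matplotlib 3.10.9 were used.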

Additional observations from a re-analysis of the deposited data

How the results depend on the processing

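The number of genes with 4 or more summits (69) was 13 if only peaks from the median signal upwards were counted, 108 with spans extended by 1 kb, 45 with summits within 1 kb counted once, 28 without summits near a TSS, 160 at 3 or more and 30 at 5 or more. It was 83 to 90 with 1 replicate left out, where 50 to 54 of the 69 were kept and 42 were in all 3 lists. The share of reproducible summits in these genes (9.73%) was 4.35%, 14.4%, 7.19%, 11.7%, 16.9% and 5.72% in the first 6 settings, the fourth being of summits away from TSSs, and 11.99% to 13.1% with 1 replicate left out. Spearman's correlation of summits and length (0.337) was 0.252 with stronger peaks, 0.283 with extended spans, 0.322 with each summit given to the shortest gene, 0.291 without summits near a TSS, and 0.308 to 0.312 with 1 replicate left out. The median length was 68.5 kb at 5 or more summits and 32.9 to 34.7 kb with 1 replicate left out. The share over 1 kb from a TSS (64.8%) was 57.7% with extended spans, 77.4% with a limit of 500 bp, 50.7% with 2 kb, and 63.1% to 67.4% with 1 replicate left out. The share in all 3 top lists (58.2%) was 87.2% with stronger peaks, 52.7% at an overlap of 50%, and 60.7% to 66.7% with 1 replicate left out. The median density was 1.48 to 1.56 per 10 kb with 1 replicate left out. In these lists rebuilt from replicates the same number of peaks was kept from the pooled list by mean rank. The cause of these shifts was not tested, beyond the change of threshold or span that each setting makes. The list counts changed by over 1.5 times in 7 of 17 lists at 3 or more summits and in 9 at 5 or more. Motif shares left their interval for 9 of 11 motifs within 50 bp and for 6 within 250 bp. No paired analysis was possible because the 3 samples form 1 group. Depth is unknown, so the lower count in replicate 1 could not be set against it.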

Other observations

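Outside the 69 genes, a few held 4 or more summits of the top list of every replicate taken alone, and those given here were picked for their values. Among them are ftz-f1, a nuclear receptor gene of 50.7 kb with 5, 4 and 4 such summits in replicates 1, 2 and 3, Kdm2, a histone demethylase gene of 10.8 kb with 4, 5 and 4, and milt, the adaptor gene for mitochondrial transport, of 18.2 kb with 4, 4 and 4. The reproducible list held 3 summits in ftz-f1, 3 in Kdm2 and 2 in milt. Conversely, Fas3, Pax, Spn and Zdhhc8 held 4 reproducible summits but fewer than 4 of the top list in each replicate.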
